A study of Mus musculus with 69 samples.

Results

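The genes that remodel nucleosomes and write, read or erase histone marks were followed in mouse embryonic stem (ES) cells in which the level of Oct3/4 was moved down or up. Members were all genes whose single symbol began with Smarc, Chd, Hdac, Kdm, Kmt, Kat, Setd, Brd, Prmt, Ing or Arid, most of these stems followed by a number, so the rule itself used no expression value. There were 93 such genes on either of the study's array sets. The time-course arrays measured 56 of their 5126 named genes with 96 oligonucleotides, the reference arrays measured 86 of 8973, and 49 were on both. No Ing gene and no Arid3 gene was among the 56.

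Oct3/4, encoded by Pou5f1, is a POU transcription factor that keeps ES cells undifferentiated within a narrow range of its level. In ZHBTc4 cells both Pou5f1 alleles are disrupted and a tetracycline (Tet)-repressed Oct3/4 transgene is the source of the protein, so addition of Tet (Tc+) shut it off. ZHTc6 cells are Pou5f1 +/-, and Tet withdrawal (Tc-) turned on an Oct3/4 transgene beside the intact allele. ZHBTc4 was made from ZHTc6 by disrupting that allele. Both lines came from CGR8 cells and were grown without feeders in medium with leukaemia inhibitory factor (LIF). For each line, 3 independent samples at 24, 48, 72, 96 and 120 h were each hybridised in both dye orientations (60 arrays) against 0 h RNA of the same line. On 9 further arrays, 3 samples of each line at 0 h, and EB5 ES cells that received a short interfering RNA (siRNA) against green fluorescent protein (siGFP) or against Tcl1 at 560 or 1120 uM as labelled (siTcl1), were set against Universal Mouse Reference RNA. For 1 ZHTc6 pair at 120 h the label of the time point reads number 2 and that of its 0 h partner number 1. It was taken as sample 1, and by the time point's own label that group would hold only 2 samples. Expression values below are log2 ratios. A change was called when its Benjamini-Hochberg adjusted p in limma, over all 20580 genes and unnamed oligonucleotides of the time-course arrays or all 18300 of the reference arrays, was under 0.05. The 3 samples of a time point are described only as independent, so p-values measure the spread between these cultures.

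Chromatin regulators act in large complexes with interchangeable subunits. SWI/SNF (BAF and PBAF), ISWI and CHD ATPases slide or evict nucleosomes. Lysine acetyltransferases (Kat) and deacetylases (Hdac) add and remove acetyl groups that bromodomain proteins (Brd) bind. Methyltransferases (Kmt, Setd, Prmt) mark lysine or arginine, and the Kdm enzymes erase lysine methylation. In ES cells several of these proteins, among them the SWI/SNF ATPase Smarca4, Chd1 and the H3K9 demethylase Kdm3a, are known for a part in self-renewal.

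Pou5f1 fell in all 3 ZHBTc4 samples, with 5-day means of -2.35, -2.65 and -2.22. In ZHTc6 the 5-day means were 0.43, 0.64 and 0.30, with a different course in each sample. At 24 h they were at -0.22, -0.047 and 0.63, at 72 h at 1.30, 1.56 and -0.07, and at 120 h at 0.63, 0.65 and 0.79. All 7 measured ES cell markers fell in ZHBTc4 and 6 of the 7 fell in ZHTc6, Pou5f1 being the exception. The trophectoderm markers Krt8, Krt18 and Gata3 rose by 4.00, 3.73 and 3.76 in ZHBTc4 and by 1.93, 1.61 and 0.34 in ZHTc6, while the other measured marker of that list, Hand1, was called in neither (-0.089 and 0.13). Gata6 of primitive endoderm rose by 1.27 in ZHBTc4 and 0.98 in ZHTc6. Gata4 and Sox17 of that list were not called in ZHBTc4 (-0.10 and 0.067) and rose in ZHTc6 (0.32 and 0.40). The mesoderm markers Mesp1, Gsc and Fgf8 rose by 2.05, 1.63 and 1.26 in ZHTc6. In ZHBTc4 Gsc fell (-0.75), while Mesp1 and Fgf8 were not called (0.023 and 0.013). In these bulk samples fewer cells of a type and less RNA per cell cannot be told apart. The dye-swapped arrays of a sample correlated between 0.0535 and 0.835 over all units, the lowest being ZHBTc4 sample 1 at 24 h. Of the 56 members, 32 had at least 1 oligonucleotide named by the array's annotation and 24 were named only through the study's own gene tables, which were selected on these samples, so counts are also given for the 32. Among the 24 were Arid2, Brd2, Chd1, Chd2, Hdac1, Hdac4, Hdac5, Kat2b, Kat8, Kdm6a, Kdm6b and Kdm7a. Prmt2, Setd6, Setd7, Setdb1, Smarca1, Smarcd1, Smarcd3 and Smarce1 were also among them. Of the 32, Brd8, Kmt2e, Setd2, Setd5 and Smarca5 also averaged oligonucleotides named through those tables. The sizes and p-values of all these genes are subject to that selection.

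Over the 5 days (each sample's average across its 5 times), members fell more often than they rose in both lines. In ZHBTc4, 28 of 56 fell and 12 rose, with a median of -0.21. Among all units 22.8% fell and 23.8% rose, with a median near 0. In ZHTc6, 28 of 56 fell and 10 rose, with a median of -0.19, while of all units 20.3% fell and 29.3% rose and the median was 0.07. The 32 annotation-named members gave 14 lower and 6 higher in ZHBTc4 and 18 lower and 5 higher in ZHTc6. They were called in 62.5% and 71.9%, against 83.3% and 62.5% of the 24 members named only through the study's tables. Named genes were called more often than unnamed oligonucleotides: of all 5126 named genes, 1801 fell and 1731 rose in ZHBTc4 (68.9% called, against 71.4% of members) and 1781 fell and 1333 rose in ZHTc6 (60.7% against 67.9%). The members' share called was thus near that of named genes. Among the members called, 28 of 40 in ZHBTc4 and 28 of 38 in ZHTc6 were lower. Named genes are not a neutral background in this or any later time-course comparison. Of the time-course oligonucleotides 6694 carried a gene name, while the annotation gave a single gene for only 4262. Other names came through the study's tables, which were selected on these samples. That selection can raise the share of named genes called, by an amount that was not tested. A list of 53 other measured chromatin genes outside these families (subunits of NuRD, Polycomb, INO80 and MLL complexes among them) gave 30 lower and 17 higher in ZHBTc4 and 35 lower and 9 higher in ZHTc6.

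**Figure D1:**
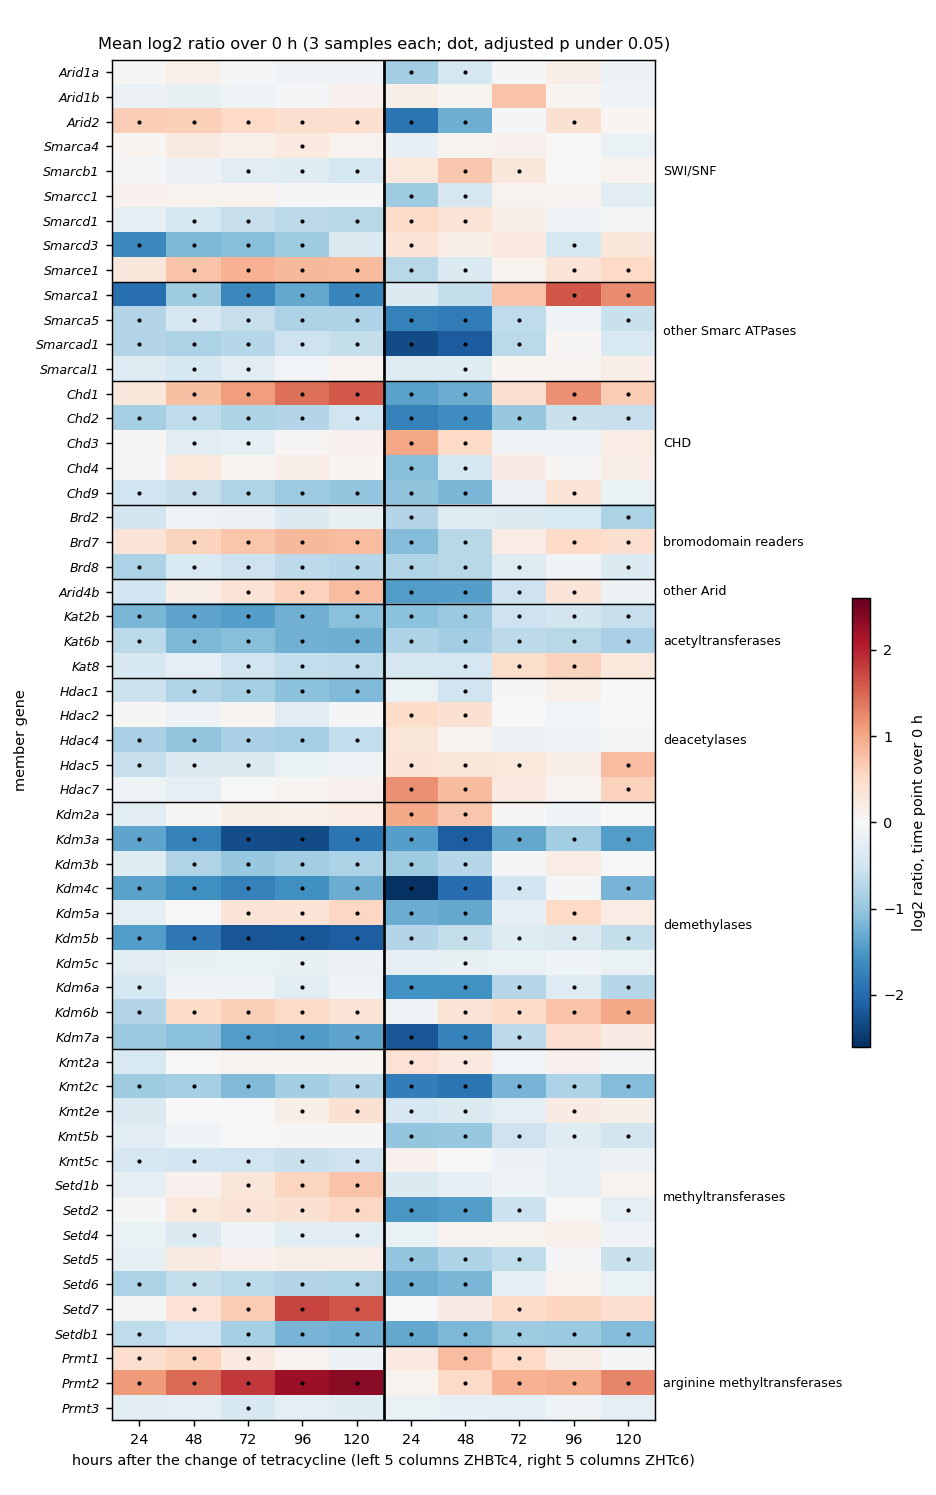
Mean log2 ratio over 0 h of 55 members (rows, by family) at 24 to 120 h in ZHBTc4 (left 5 columns) and ZHTc6 (right 5 columns), 3 samples a cell, with a dot where limma's adjusted p was under 0.05. In ZHTc6 the blue of 24 and 48 h fades by 96 h in most rows, while in ZHBTc4 the Kdm3a, Kdm5b, Kat2b and Kat6b rows stay low throughout.

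The demethylases held the largest falls. In ZHBTc4, 7 of the 10 measured Kdm genes fell and 1 rose, and in ZHTc6, 8 fell and 2 rose. Kdm5b (Jarid1b), which removes H3K4 methylation, had 5-day means of -2.05, -1.81 and -2.05 in the 3 ZHBTc4 samples, against -0.61, -0.45 and -0.57 in ZHTc6. Every ZHBTc4 sample lay below every ZHTc6 sample. It fell 3.92-fold in ZHBTc4 (mean -1.97 ± 0.0655, SE, adjusted p = 5.85e-07) and less in ZHTc6, and the lines differed by 1.43 (adjusted p = 3.43e-05). Kdm3a (Jmjd1a), an H3K9 demethylase, fell in both lines. Its 5-day means were -1.94, -1.68 and -2.17 in ZHBTc4 and -1.42, -1.53 and -1.43 in ZHTc6, with adjusted p of 2.18e-06 and 5.16e-05. The line difference of 0.47 was called (adjusted p = 0.0191), but not without ZHTc6 sample 1 (adjusted p = 0.0637) or sample 3 (adjusted p = 0.0632). Kdm4c (Jmjd2c), which acts on trimethylated H3K9, had 5-day means of -1.53 in ZHBTc4 and -1.26 in ZHTc6, and its line difference of 0.27 was not called (adjusted p = 0.188). The pair that removes H3K27 methylation moved apart. Kdm6a fell by 0.99 in ZHTc6 and by 0.22 in ZHBTc4, whereas Kdm6b rose by 0.50 in ZHTc6 (samples 0.42, 0.50 and 0.58) and by 0.23 in ZHBTc4 (samples 0.18, 0.10 and 0.41). The ZHBTc4 rise of Kdm6b was lost without ZHBTc4 sample 1 (adjusted p = 0.0587), ZHBTc4 sample 3 (0.120) or ZHTc6 sample 2 (0.0517).

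The start-site regions of the genes with the largest fall in each line (Kdm5b and Kdm3a), the largest difference between lines (Smarca1) and the largest rise (Prmt2) are shown because the results turn on them. Each is 300 bases from RefSeq (GRCm38.p6), 250 before to 50 after the annotated start, read 5′ to 3′ on the gene's strand, with GC boxes (GGGGCGGGG) and CCAAT boxes (CCAAT or its complement ATTGG) in capitals:
Kdm5b, chr1:134559928-134560227, plus strand: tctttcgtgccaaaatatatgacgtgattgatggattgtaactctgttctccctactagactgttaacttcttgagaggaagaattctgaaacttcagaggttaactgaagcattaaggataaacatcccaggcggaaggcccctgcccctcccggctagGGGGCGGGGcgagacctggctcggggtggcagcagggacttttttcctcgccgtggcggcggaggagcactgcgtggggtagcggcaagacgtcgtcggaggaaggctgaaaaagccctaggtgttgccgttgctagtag
Kdm3a, chr6:71632868-71633167, minus strand: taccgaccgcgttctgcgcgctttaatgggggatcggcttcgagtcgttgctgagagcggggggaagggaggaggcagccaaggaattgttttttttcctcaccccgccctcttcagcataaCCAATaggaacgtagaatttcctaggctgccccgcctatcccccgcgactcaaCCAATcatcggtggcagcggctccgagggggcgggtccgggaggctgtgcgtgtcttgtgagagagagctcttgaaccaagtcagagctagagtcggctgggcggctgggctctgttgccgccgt
Smarca1, chrX:47892564-47892863, minus strand: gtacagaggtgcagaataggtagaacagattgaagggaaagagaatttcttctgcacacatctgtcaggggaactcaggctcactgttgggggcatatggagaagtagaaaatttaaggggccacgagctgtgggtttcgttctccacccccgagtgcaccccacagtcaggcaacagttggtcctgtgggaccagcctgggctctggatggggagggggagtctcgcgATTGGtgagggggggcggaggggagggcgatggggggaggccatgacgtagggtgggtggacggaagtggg
Prmt2, chr10:76237816-76238115, minus strand: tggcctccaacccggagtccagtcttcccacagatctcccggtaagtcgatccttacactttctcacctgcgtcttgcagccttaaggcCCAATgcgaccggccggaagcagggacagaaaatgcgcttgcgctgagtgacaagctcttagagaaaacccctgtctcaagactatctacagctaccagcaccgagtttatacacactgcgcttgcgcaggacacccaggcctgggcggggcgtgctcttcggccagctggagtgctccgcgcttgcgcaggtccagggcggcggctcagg
RefSeq windows were found for 42 of the 56 members (58 windows). The octamer that POU factors bind, searched on both strands as ATTTGCAT and ATTAGCAT, was in 0 of the 58, against 1.75% and 0.921% of all 27025 promoter windows. A CCAAT box was in 16 of 42 members (38.1%, against 37.9% of all windows), a GC box in 9 (21.4%, against 11.6%), and the median GC content was 61.0% against 52.7%. These are matches of letters within 300 bases and say nothing of binding.

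All 3 measured acetyltransferases fell in ZHBTc4, with a median of -1.10, and 2 of the 3 fell in ZHTc6. Kat2b (PCAF) had 5-day means of -1.29, -1.13 and -1.38 in ZHBTc4 and -0.81, -0.72 and -0.66 in ZHTc6, and the lines did not overlap (difference 0.54, adjusted p = 0.00264). Its 3 oligonucleotides ranged from -1.78 to -0.41 in ZHBTc4 and from -1.23 to -0.09 in ZHTc6, and the smallest of the ZHTc6 values was not called (adjusted p = 0.201). Kat6b (Morf), a histone H3 acetyltransferase, fell by 1.10 in ZHBTc4 and by 0.79 in ZHTc6. Kat8 (Mof), which acetylates histone H4, fell by 0.49 in ZHBTc4 and measured 0.088 in ZHTc6 (adjusted p = 0.327), a difference of 0.58 (adjusted p = 0.00325).

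Most measured deacetylases differed between lines, though only Hdac5 was called in opposite directions. Of 5 measured, 3 fell and 0 rose in ZHBTc4, 2 rose and 0 fell in ZHTc6, and 4 of the 5 were higher in ZHTc6 than in ZHBTc4 by the test of the difference. Of all units, 22.8% fell in ZHBTc4, 29.3% rose in ZHTc6 and 22.3% were higher in ZHTc6 by that test. Of named genes these shares were 35.1%, 26% and 26.9%. Hdac1, the class I enzyme of NuRD and Sin3 complexes, had 5-day means of -0.75, -1.11 and -0.80 in ZHBTc4 and -0.24, -0.14 and 0.072 in ZHTc6 (difference 0.78, adjusted p = 0.0021). Its partner Hdac2 was called in neither line over the 5 days. The class IIa enzymes Hdac4, Hdac5 and Hdac7, which shuttle between cytoplasm and nucleus, gave 3 different pictures. Hdac4 was at -0.88, -0.88 and -0.79 in ZHBTc4 (adjusted p = 7.58e-06) and at -0.013, 0.085 and -0.0081 in ZHTc6. Hdac5 fell in ZHBTc4 (-0.37, -0.27 and -0.32) and rose in ZHTc6 (0.31, 0.39 and 0.43), a difference of 0.70 (adjusted p = 0.00024). Hdac7 rose in ZHTc6 (0.70, 0.54 and 0.51) and averaged -0.031 in ZHBTc4. At 0 h Hdac4 and Hdac5 read lower in ZHTc6 than in ZHBTc4 (-0.74 and -0.63), so their ratios started from unequal levels.

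**Figure D2:**
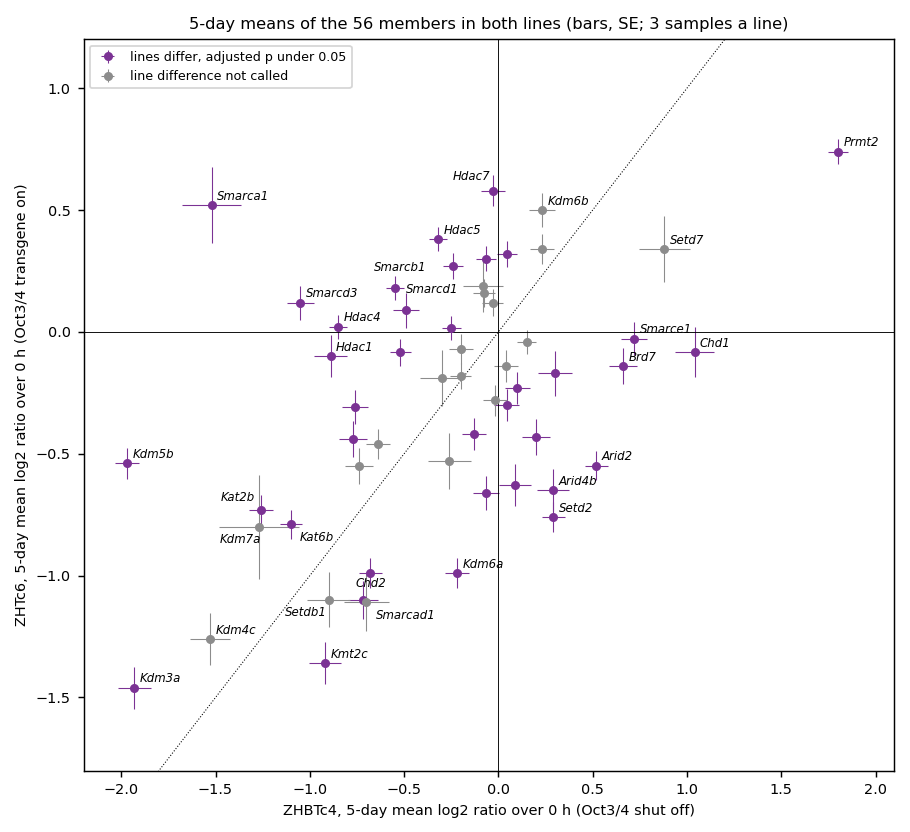
Mean 5-day log2 ratio over 0 h of the 56 members in ZHBTc4 (x axis) and ZHTc6 (y axis), with bars of 1 SE and a dotted line of equal change; purple points had a called difference between lines. Kdm5b, Smarca1, Smarcd3, Hdac1 and Hdac4 lie far above the dotted line and Chd1, Arid2, Setd2 and Prmt2 below it.

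Within SWI/SNF, subunits of the same complex moved in different directions. In ZHBTc4, 3 of the 9 measured rose and 3 fell, and in ZHTc6, 2 rose and 3 fell. Smarcd3 (Baf60c), an accessory subunit known from heart and muscle development, had 5-day means of -0.96, -0.98 and -1.20 in ZHBTc4 (adjusted p = 1.63e-05) and 0.23, 0.15 and -0.015 in ZHTc6, and the lines differed by 1.17 (adjusted p = 0.000113). Smarcd1 (Baf60a), which takes the same place in the complex, fell in ZHBTc4 (-0.53, -0.62 and -0.50). Its ZHTc6 mean of 0.18 was called, but not when any 1 ZHTc6 sample was left out (adjusted p 0.0654 to 0.11). Smarcb1 (Snf5), a core subunit, fell by 0.24 in ZHBTc4 and rose by 0.27 in ZHTc6, and each line's 3 samples kept to 1 side of 0. Smarce1 (Baf57) rose in ZHBTc4 (0.80, 0.53 and 0.84), while its ZHTc6 mean was -0.028 (adjusted p = 0.753). Arid2, the subunit that marks PBAF, rose in ZHBTc4 (0.61, 0.56 and 0.40, adjusted p = 0.000252) and fell in ZHTc6 (-0.62, -0.47 and -0.57, adjusted p = 0.000418). Its line difference of -1.07 (adjusted p = 7.88e-05) came from both of its oligonucleotides, which gave 0.50 and 0.54 in ZHBTc4 and -0.60 and -0.50 in ZHTc6. The catalytic subunit Smarca4 (Brg1) had a mean of 0.15 in ZHBTc4 (adjusted p = 0.043) and -0.041 in ZHTc6, and its BAF partner Arid1b was called at no time point in either line.

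Smarca1 (Snf2l) and Smarca5 (Snf2h) are the ISWI ATPases. Smarca1, named only through the study's tables, gave the largest difference between lines of any member. Its 5-day means were -2.0, -1.0 and -1.55 in ZHBTc4 and 0.49, 0.51 and 0.57 in ZHTc6 (difference 2.04, adjusted p = 0.000364). The ZHBTc4 fall held at 48 to 120 h, while at 24 h sample 1 read -4.35 against -0.48 and -1.04. The ZHTc6 rise (adjusted p = 0.0281) was lost without any 1 ZHTc6 sample (adjusted p 0.0853 to 0.104). Smarca5 fell in both lines, by 0.68 in ZHBTc4 and 0.99 in ZHTc6, although its 5 oligonucleotides ranged from -1.94 to 0.19 in ZHBTc4. Smarcad1, a remodeller tied to heterochromatin and DNA repair, fell by 1.11 in ZHTc6 (samples -1.09, -1.22 and -1.01) and by 0.70 in ZHBTc4 (-0.76, -0.33 and -1.02).

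Among the CHD remodellers 2 of 5 fell and 1 rose in ZHBTc4, and 3 fell and 1 rose in ZHTc6. Chd1, which binds methylated H3K4 at active genes, was the one that rose in ZHBTc4 (0.83, 1.39 and 0.89, adjusted p = 0.000126). Its ZHTc6 mean was -0.083, a difference of -1.12 (adjusted p = 0.000861). Chd2 fell in both lines, by 0.72 in ZHBTc4 and 1.10 in ZHTc6. Chd9 fell by 0.77 and 0.44, but its first oligonucleotide alone gave -0.0958 and -0.0581, neither called. The NuRD ATPases parted in ZHTc6, where Chd3 rose by 0.30 and Chd4 fell by 0.23; the Chd4 call was lost without ZHTc6 sample 1 (adjusted p = 0.143) or sample 2 (adjusted p = 0.1). In the bromodomain group Brd7, a PBAF subunit like Arid2, rose in ZHBTc4 (0.55, 0.87 and 0.54) and averaged -0.14 in ZHTc6. Brd8, of the TIP60 complex, fell in both lines (by 0.64 and 0.46). Its 4 oligonucleotides ranged from -1.13 to -0.10 in ZHBTc4 and from -0.67 to 0.12 in ZHTc6. Brd2, of the BET family, fell in ZHTc6 (-0.58, -0.57 and -0.44; not called without sample 1, adjusted p = 0.0558). The Sin3-associated Arid4b averaged 0.29 in ZHBTc4 and fell by 0.65 in ZHTc6. The ZHBTc4 rise was not called without ZHBTc4 sample 2 (adjusted p = 0.139), ZHBTc4 sample 3 (0.0731) or ZHTc6 sample 3 (0.0505), and its 2 oligonucleotides gave -0.021 and 0.60.

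Lysine methyltransferases fell in 5 of 12 and rose in 3 of 12 cases in ZHBTc4, and fell in 6 and rose in 0 in ZHTc6. Kmt2c (Mll3), which methylates H3K4 at enhancers, fell in both lines, with 5-day means of -0.76, -1.04 and -0.98 in ZHBTc4 and -1.55, -1.15 and -1.39 in ZHTc6. Setdb1, which places H3K9 methylation, was at -0.77, -1.13 and -0.80 in ZHBTc4 and -1.41, -0.86 and -1.04 in ZHTc6, and the lines overlapped. Setd7, a monomethyltransferase of H3K4 and other proteins, rose in ZHBTc4 (1.28, 0.46 and 0.90), with a wide spread between samples. Setd2, which trimethylates H3K36, fell in ZHTc6 (-0.89, -0.70 and -0.68) and averaged 0.29 in ZHBTc4. That ZHBTc4 call rested on the oligonucleotide named by the study's tables (0.68), since the one named by the annotation measured -0.0995 (adjusted p = 0.247). Of the arginine methyltransferases, Prmt2, named only through the study's tables, was the largest riser of all members. It stood at 1.70, 1.90 and 1.79 in ZHBTc4, 3.48-fold up (adjusted p = 3.81e-07), and at 0.73, 0.72 and 0.76 in ZHTc6 (adjusted p = 8.93e-05), a difference of -1.06 with no overlap. Prmt1, the main source of asymmetric arginine methylation, rose by 0.23 in ZHBTc4 and 0.34 in ZHTc6; the ZHBTc4 call was lost without ZHBTc4 sample 2 (adjusted p = 0.052) or sample 3 (0.0783). Prmt3 was called in neither line.

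Seen over both lines, 17 members fell in both, 3 rose in both (Kdm6b, Prmt1 and Prmt2) and 7 were called in opposite directions: Arid2, Arid4b and Setd2 higher in ZHBTc4 and lower in ZHTc6, and Hdac5, Smarca1, Smarcb1 and Smarcd1 lower in ZHBTc4 and higher in ZHTc6. Falls in both lines were thus found in 30.4% of members, against 18% of named genes and 9.98% of all units, rises in both in 5.36% (12.8% and 9.06%), and opposite calls in 12.5% (12.1% and 7.23%). Both lines' ratios have their own 0 h RNA as denominator and share no control. The test of the difference between lines was passed by 37 of 56 members (66.1%, against 41.4% of all units and 61.2% of named genes). Of these, 19 were higher in ZHTc6 (33.9%, against 26.9% of named genes and 22.3% of all units) and 18 lower (32.1%, against 34.3% and 19.1%).

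**Figure D3:**
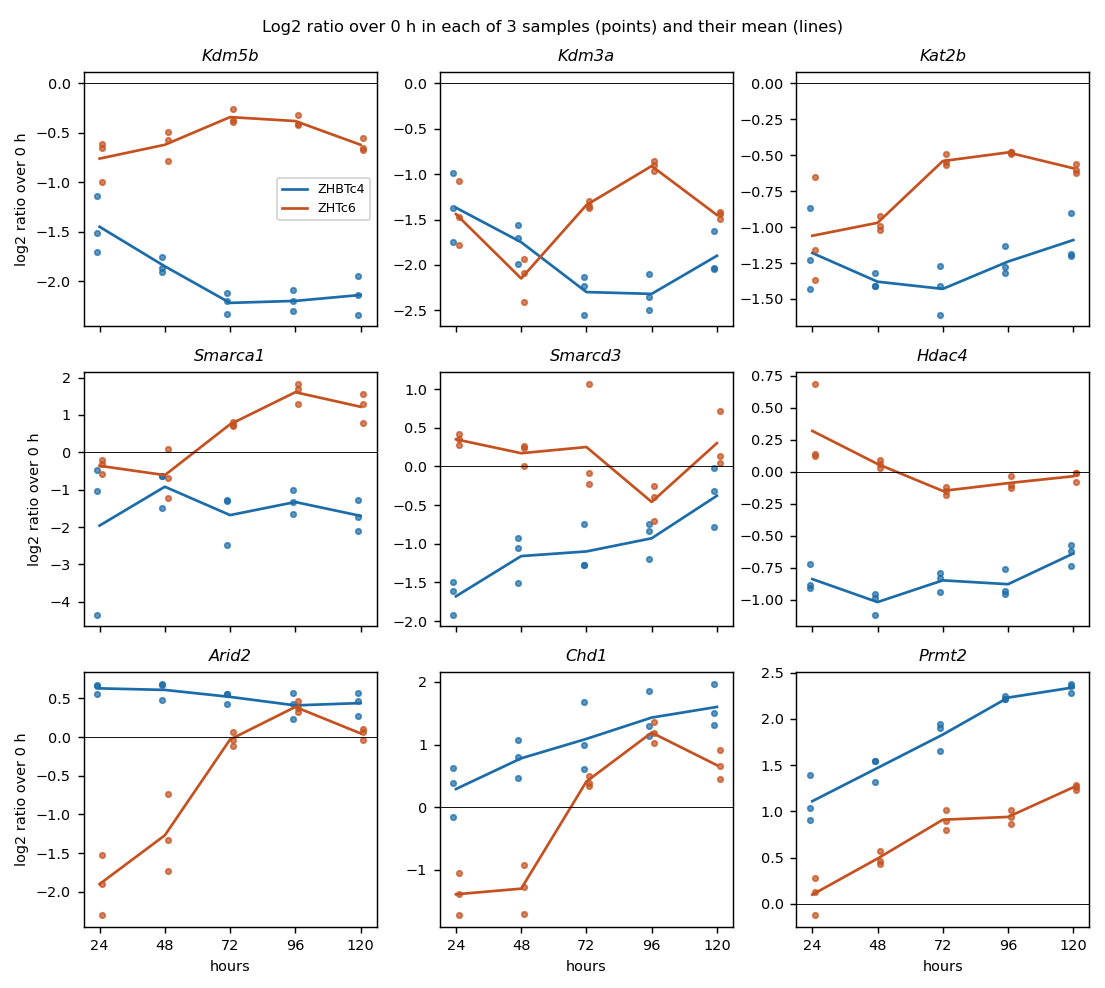
Log2 ratio over 0 h against hours for 9 members in ZHBTc4 (blue) and ZHTc6 (orange), with points for the 3 samples, lines for their means and a separate y scale in each panel. Kdm5b and Hdac4 keep the lines apart at every time, whereas the lines of Arid2 and Chd1 start apart, meet at 96 h and part again at 120 h.

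Counts by time point ran differently in the lines. In ZHBTc4 the number of members called grew from 23 at 24 h (14.0% of all units) to 33 after 48 h (25.9%) and 39 by 72 h (39.7%). It then held at 39 (96 h, 46.0%) and 36 (120 h, 45.6%). This growth rested on fitting each time point apart: 1 fit over all time points gave 37, 34, 37, 40 and 37, and the members' median was -0.36 at 24 h and -0.17 at 72 h. In ZHTc6 it was highest early, with 39 at 24 h (55.5%) and 45 by 48 h (60.4%). From 72 h on it was lower, with 24 (72 h, 19.2%), 22 (96 h, 34.7%) and 23 (120 h, 28.7%). These counts moved when samples were left out, above all at ZHBTc4 24 h (8 without ZHBTc4 sample 3, 15 without ZHBTc4 sample 2) and ZHTc6 72 h (10 without ZHTc6 sample 1, 10 without sample 2, 14 without sample 3). Shares called at the 5 times in ZHBTc4 were 41.1%, 58.9%, 69.6%, 69.6% and 64.3% of members. Of named genes they were 28.4%, 48%, 62.9%, 69% and 68.1%. For ZHTc6 they were 69.6%, 80.4%, 42.9%, 39.3% and 41.1% of members and 61.8%, 68.5%, 33.9%, 51.8% and 46.9% of named genes. Members thus lay below named genes at 96 and 120 h in ZHTc6 and at 120 h in ZHBTc4. The named genes include many that were named through the study's tables, so their shares are subject to that selection. By an F test over the time points, 45 members changed with time in ZHTc6 (80.4%, against 78.6% of named genes and 64.7% of all units) and 23 in ZHBTc4 (41.1%, against 48.4% and 28.5%; 15 without ZHBTc4 sample 1 and 14 without sample 3).

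The early phase in ZHTc6 was one of falls. At 24 h, 31 of 56 members were lower (24.2% of all units and 2310 of 5126 named genes), and at 48 h, 34 were (25.3%, and 2356 named genes). Their median at 24 h was -0.76, against -0.27 for named genes and 0.1 for all units. Kdm4c reached the lowest member mean there, -2.57, and Smarcad1 fell to -2.70, -2.48 and -1.77. Arid2 fell to -2.30, -1.90 and -1.52 in the same samples, at a time when it was at 0.67, 0.66 and 0.56 in ZHBTc4. In all, 30 members were lower at both 24 and 48 h (53.6%, against 40.0% of named genes and 20.6% of all units). Against this stood 7 that were higher at both times (12.5%, against 14.1% and 26.1%): Chd3, Hdac2, Hdac5, Hdac7, Kdm2a, Kmt2a and Smarcd1. Hdac7 was the highest at 24 h, with 1.53, 1.17 and 0.84, followed by Chd3 (1.28, 1.08 and 0.66) and the H3K36 demethylase Kdm2a (1.29, 0.91 and 0.77). Of 5 measured proliferation genes, 4 were also lower at 24 h (range -2.99 to 0.088) and 4 at 48 h (-3.18 to -0.11), against 1 at 120 h. The part of this in the members' fall was not tested.

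In ZHTc6 most members stood higher late than early, though not all early falls were undone. The mean of 96 and 120 h less the mean of 24 and 48 h, in which the shared 0 h RNA drops out, was higher for 33 of 56 members in ZHTc6 (29.3% of all units) and lower for 11 (37.8%). Of named genes, 53.9% were higher and 20.5% lower. The median was 0.58 for members, 0.36 for named genes and -0.11 for all units, and among the 32 annotation-named members 18 were higher and 6 lower. Chd1 rose late from -1.72, -1.39 and -1.05 at 24 h to 1.36, 1.19 and 1.02 at 96 h, an early-to-late change of 2.27 (adjusted p = 2.1e-05). Kdm7a changed by 2.31 but with samples at 3.48, 1.14 and 2.31. Smarcad1 changed by 2.06 (2.38, 2.02 and 1.77) and stood at 0.14, -0.04 and 0.0023 at 96 h. Smarca1 changed by 1.90 and Arid2 by 1.81. All 4 of the other Smarc ATPases, 4 of 5 Chd genes, 7 of 10 Kdm genes and 3 of 4 Brd genes were higher late than early. Other families were mixed: SWI/SNF gave 4 higher and 3 lower of 9, and lysine methyltransferases 6 and 2 of 12. Deacetylases gave 1 higher and 3 lower of 5, arginine methyltransferases 1 and 1 of 3, and acetyltransferases 2 and 0 of 3.

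Of the 30 members lower at 24 and 48 h, 27 were higher late than early, as were 1872 of the 2050 named genes lower at both times. These times are themselves subtracted in the change, so the choice favours that direction. The 30 ended at different levels. At 96 and 120 h, 9 of the 30 were still below 0 h, among them Chd2, Kat2b, Kdm3a, Kdm6a and Kmt2c. A further 8 (Arid2, Arid4b, Brd7, Chd1, Chd9, Kdm5a, Kmt2e and Smarce1) were above 0 h at 1 or both of these times, and 8 were called at neither. The remaining 5 (Brd8, Kdm4c, Setd2, Setd5 and Smarca5) were lower at 120 h only. The 3 with no early-to-late call were Kat6b, Kdm5b and Setdb1. When arrays were scaled to equal spread, the early-to-late change in ZHTc6 turned below 0 for Kdm3a (-0.288), Kat6b (-0.465), Setdb1 (-0.502), Kat2b (-0.0127) and Kmt2c (-0.0309). Of the 7 early risers, 6 came down again: Kdm2a by 0.91, Chd3 by 0.72, Hdac7 by 0.67, Smarcd1 by 0.49, Hdac2 by 0.48 and Kmt2a by 0.28.

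**Figure D4:**
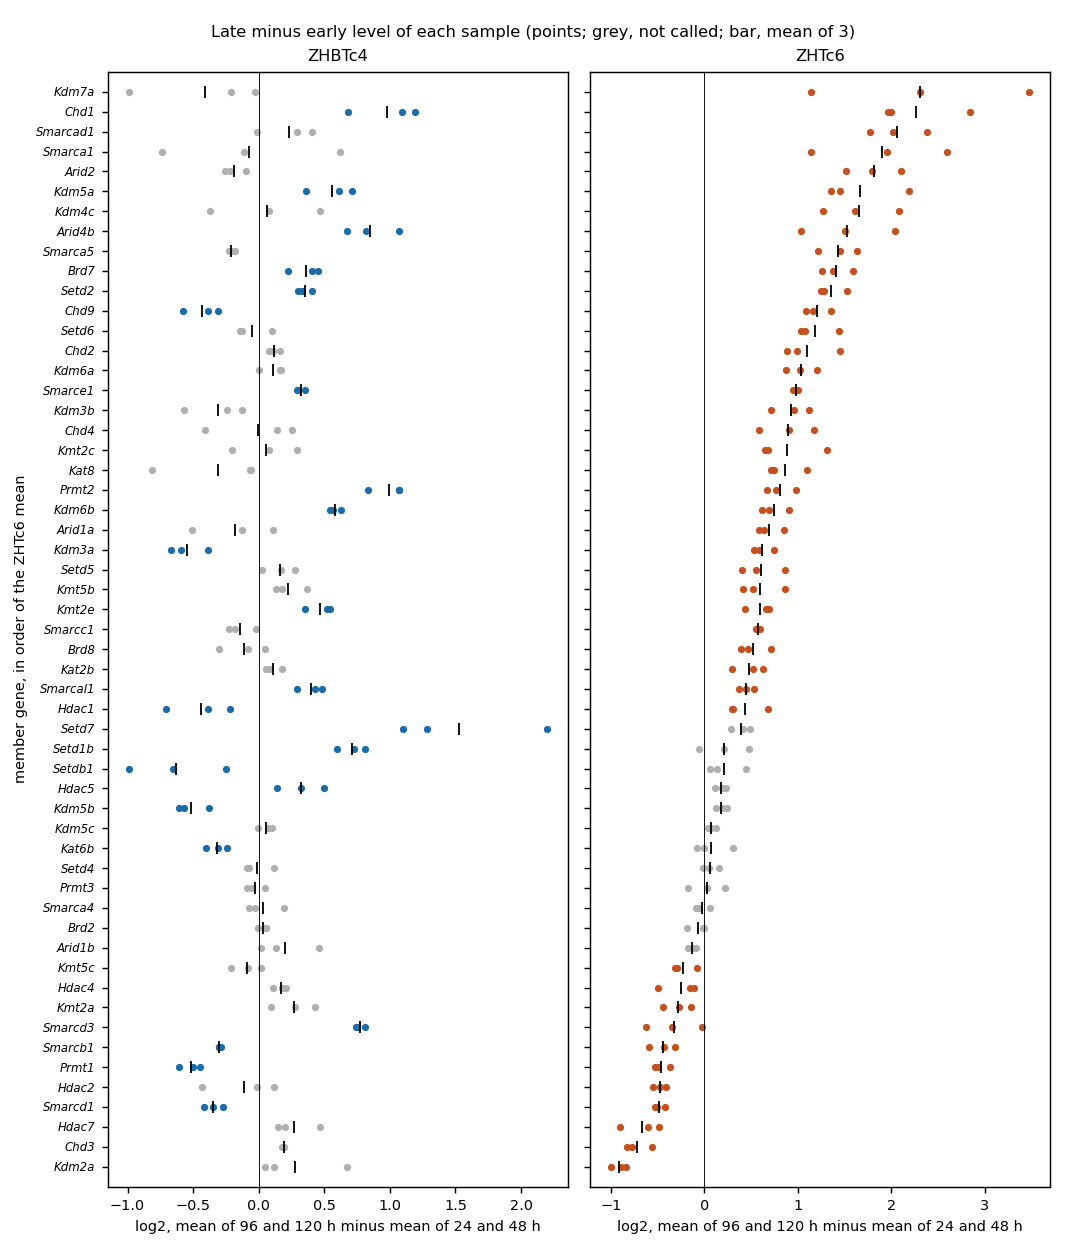
Mean of 96 and 120 h minus mean of 24 and 48 h, in log2, for 55 members (rows, in order of the ZHTc6 mean) and each of the 3 samples (points; grey where not called; bar, mean) in ZHBTc4 (left) and ZHTc6 (right, on a wider x scale). In ZHTc6 most members lie right of 0, from Kdm7a at 2.31 down to Kdm2a at -0.91, and the ZHBTc4 points lie closer to 0.

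In ZHBTc4 late levels were higher than early ones for 15 members (26.8%, against 27.7% of named genes and 15.5% of all units) and lower for 9 (16.1%, against 21.8% and 14.3%), and arrays scaled to equal spread gave 18 and 3. The lower count was 3 without ZHBTc4 sample 1 and 6 without sample 2 or sample 3. There, 14 members were lower at all 5 time points (25.0%, against 10.7% of named genes and 4.18% of all units) and 2 higher (Arid2 and Prmt2; 3.57%, against 7.71% and 3.57%). In both lines Chd2, Kat2b, Kat6b, Kdm3a, Kdm5b and Kmt2c were lower at every time point (10.7%, against 2.09% and 0.952%). Kdm5b in ZHBTc4 stood at -1.51, -1.14 and -1.71 at 24 h and at -2.34, -1.95 and -2.14 at 120 h. Prmt2 climbed step by step, from 1.04, 1.39 and 0.91 at 24 h to 2.28, 2.36 and 2.38 at 120 h, and by less in ZHTc6, from 0.13, -0.12 and 0.28 to 1.28, 1.26 and 1.23. Setd7 showed the largest late gain in ZHBTc4, 1.53 (adjusted p = 0.000528), with 2.50, 1.36 and 1.42 at 96 h. Chd1 gained 0.98, Arid4b 0.85 and Smarcd3 0.77, the last returning from -1.92, -1.49 and -1.61 at 24 h to -0.025, -0.32 and -0.78 at 120 h. Setdb1 (-0.63), Kdm3a (-0.55), Kdm5b (-0.52), Prmt1 (-0.52) and Hdac1 (-0.44) went further down. With arrays scaled to equal spread the calls of Kdm5b (-0.0279), Kdm3a (-0.0614), Hdac1 (-0.191) and Setdb1 (-0.392) were lost. Hdac1 was also lost without ZHBTc4 sample 1 (adjusted p = 0.146) or sample 2 (0.0792), and Setdb1 without sample 1 (0.0666).

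Before Tet was changed, members were on average slightly above the reference RNA, a pool of many mouse cell types. Their median level was 0.26 over both lines (named genes -0.0045), and 58 of 86 lay above 0 (67.4%, against 49.7% of named genes). Kdm5b was highest over both lines, with 2.24, 2.29 and 2.32 in ZHBTc4 and 2.04, 1.96 and 1.87 in ZHTc6. Smarcad1 followed (means 1.73 and 1.67), then Hdac1 (1.77 and 1.54) and the cytoplasmic deacetylase Hdac6 (1.63 and 1.43). Prmt2 was among the lowest (-2.03 and -1.95), with Kmt2e (-1.83 and -2.55), the SWI/SNF ATPase Smarca2 (-1.68 and -1.89) and Hdac7 (-1.60 and -1.44). Levels are relative to the reference RNA and are not compared between genes as amounts. Over the 49 members on both array sets, the 0 h level and the 5-day change had Pearson's r of -0.573 (Spearman's rho -0.497) in ZHBTc4 and -0.3 (-0.272) in ZHTc6. Both measures hold the 0 h cells of the line, so the correlation is a description across genes only.

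The lines differed at 0 h in 6 of 86 members (6.98%, against 12.2% of named genes and 8.75% of all units), and in these 6 the 3 samples of each line did not overlap. Chd4 (0.60), Prmt1 (0.63) and Smarce1 (0.64) were higher in ZHTc6, and Hdac4 (-0.74), Hdac5 (-0.63) and Kmt2e (-0.71) were lower, with adjusted p between 0.0186 and 0.0485. For Hdac4 the samples were -0.06, 0.24 and -0.12 in ZHBTc4 and -0.67, -0.78 and -0.70 in ZHTc6. Smarce1 stood at -0.79, -0.72 and -0.69 in ZHBTc4 and at -0.13, -0.26 and 0.10 in ZHTc6. The count rested on single samples, being 20 without ZHBTc4 sample 3 and 0 without any other 1 sample. By their labels the ZHTc6 arrays carry consecutive numbers apart from those of ZHBTc4, so line and array number cannot be told apart. Chd4, Hdac4, Hdac5 and Smarce1 are also genes whose 5-day change differed between lines, by -0.33, 0.87, 0.70 and -0.75, so ratios over 0 h started from unequal levels for them. The 5-day difference of Chd4 was not called without ZHBTc4 sample 2 or 3 or ZHTc6 sample 1 or 2 (adjusted p 0.0602 to 0.0867).

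**Figure D5:**
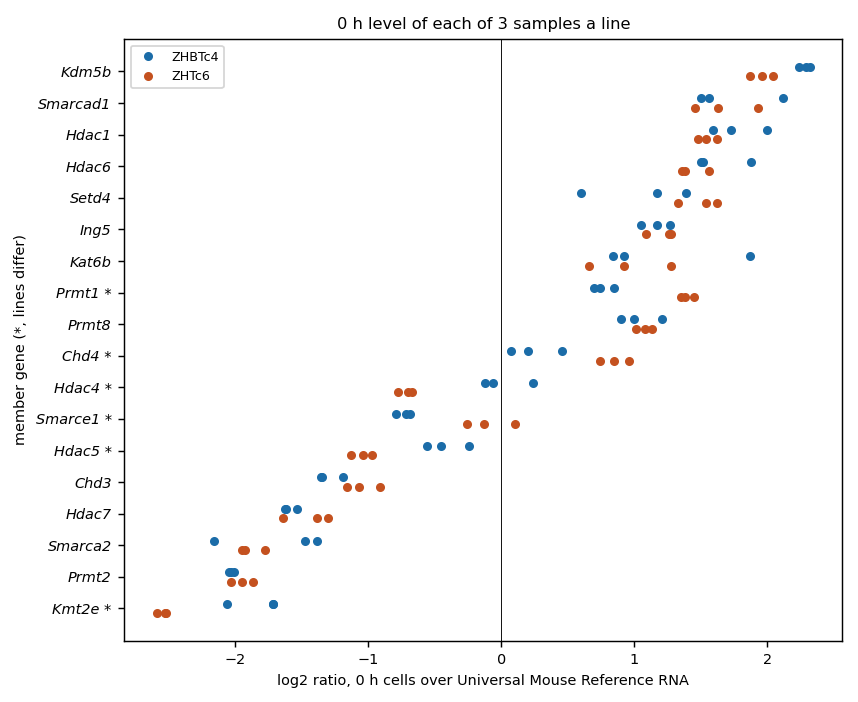
Log2 ratio of 0 h cells over Universal Mouse Reference RNA in 3 samples of ZHBTc4 (blue) and ZHTc6 (orange), for 18 members with a level past 1 in either direction or a called line difference (asterisk). Kdm5b lies at the top near 2 and Prmt2 and Kmt2e at the bottom near -2, and the 6 starred genes show no overlap between lines.

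In the siTcl1 arrays, with 1 array a condition and so no test, Tcl1 itself read 1.73 and 2.20 below siGFP at the lower and the higher dose. No member lay past a log2 difference of 1 in the same direction at both doses, as 1.90% of 18605 units did. Both doses are set against the same siGFP array, so its error enters both differences alike and favours the same direction. At a difference of 0.5 there were 2 members (2.33%, against 7.71% of units), Kat6a and Hdac1. Kat6a (Moz), a histone H3 acetyltransferase, read 1.41 and 0.77 above siGFP and Hdac1 read 0.53 and 0.78 below. Kmt2c, just inside that limit, read 0.50 and 0.57 below. Kdm5b read 0.40 and 0.59 below, Prmt8 0.45 and 0.96 below and Setd6, a lysine methyltransferase of RelA, 0.33 and 0.51 below. Above siGFP were Brd2 with 0.46 and 0.59, Prmt2 with 0.35 and 0.49, the H3K9 demethylase Kdm4a with 0.40 and 0.40 and Setdb2 with 0.26 and 0.37. Kat6a and Prmt8 were not measured on the time-course arrays. On the 0 h arrays, of the same type, Kat6a read 0, 0 and 0.37 in ZHBTc4 and 0 in all 3 ZHTc6 samples. Kdm4a read 0, 0 and 0.64 in ZHBTc4. The siTcl1 values of Kat6a and Kdm4a thus rest on oligonucleotides that often gave ratios of exactly 0.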

How the data were processed

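The authors deposited, per array, the log10 ratio of Cy5 over Cy3 signal that Agilent Feature Extraction gives, bounded at ±2. Ratios were turned to sample over 0 h RNA or over reference RNA, converted to log2, and the dye-swapped arrays of a sample averaged, so n is 3 samples a group. Oligonucleotides at the bound on over 0.5 of arrays (211) were left out and 22148 kept. Genes were named by the platform annotation where it gave 1 gene, or by the study's own tables, and oligonucleotides of a gene averaged. limma 3.58.1 in R 4.3.3 fitted all units, with 5-day means, early-to-late changes and the line difference as contrasts, each time point apart, and Benjamini-Hochberg adjustment at 0.05. The siTcl1 arrays had no replicate and no test. Array number limits the precision. Scripts were tested on simulated data. Values were given, among called members, for each family's largest rise and fall over 5 days in each line, opposite calls, the 5 largest early-to-late changes each way and all 0 h calls, and also for the 5 largest siTcl1 differences each way and Kdm3a. Values of Kat8, Kdm4c, Kdm6a, Hdac6, Kmt2a, Smarca2, Smarca4 and Smarca5 lie outside this rule and were chosen after they were seen. Values of 1 member are not reported here, though counts include it. Members and lists were chosen with earlier results of these data known. Promoters came from RefSeq (GRCm38.p6). Alternatives were other scalings, 1 dye, 1 oligonucleotide, annotation names alone, another sample number for 1 ZHTc6 pair at 120 h, a replicate block and leaving out each sample.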

Additional observations from a re-analysis of the deposited data

Results flagged for a closer look

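In 7 members the 5-day change was called in opposite directions in the 2 lines, with the difference itself past the test in limma (ZHTc6 minus ZHBTc4). Smarca1 differed by 2.04, Smarcd1 by 0.73, Hdac5 by 0.70 and Smarcb1 by 0.51, each lower in ZHBTc4 and higher in ZHTc6. Arid2 differed by -1.07, Setd2 by -1.05 and Arid4b by -0.93, each higher in ZHBTc4 and lower in ZHTc6. These directions are of 5-day means and did not hold at every time. In ZHTc6, Arid2 and Arid4b were lower at 24 and 48 h but higher than 0 h at 96 or 120 h. Arid4b averaged -0.49 (not called) at 24 h in ZHBTc4, and Smarca1 was below 0 (not called) at 24 h in ZHTc6. Both calls of Arid2 and Smarcb1 held under every alternative run; Arid2 has no annotation-named oligonucleotide and so no value under annotation names alone. At least 1 of both calls was lost under some alternative for the other 5: for Smarca1 and Smarcd1 the rise in ZHTc6, for Hdac5 the fall in ZHBTc4 in 1 dye orientation (-0.151, adjusted p = 0.0711), and for Arid4b and Setd2 the rise in ZHBTc4. The line difference of Setd2 was -0.224 (adjusted p = 0.0864) on its annotation-named oligonucleotide.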

How the results depend on the processing

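Counts and named values were recomputed under each alternative that applied. Dye, pairing at 120 h and 1 fit over all time points do not apply to 0 h, named time-course members without an annotation-named oligonucleotide have no value under annotation names alone, and single siTcl1 differences were not recomputed. With annotation names alone, which left 32 members, counts called at 24, 48, 72, 96 and 120 h were 11, 14, 18, 18 and 15 in ZHBTc4 and 22, 25, 13, 9 and 12 in ZHTc6. Over the 5 days they were 5 higher and 15 lower in ZHBTc4 and 5 higher and 18 lower in ZHTc6, from early to late 4 higher in ZHBTc4 and 15 higher and 6 lower in ZHTc6, by the F test 11 and 23, and between lines 10 higher and 7 lower. Fewer members are the construction of this alternative. With the time point in Cy3 alone, ZHBTc4 had 13 at 24 h, 21 at 48 h and 8 higher and 5 lower late, and ZHTc6 7 lower late; in Cy5 alone ZHBTc4 had 5 lower late. Scaled arrays gave 3 lower late in ZHBTc4, centred arrays 7 lower late in ZHTc6. Without moderation there were 4 at ZHBTc4 24 h, 15 at ZHTc6 72 h, 1 at 0 h and 11 lower between lines.

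No label says that a number marks a shared culture. Deviations of same-numbered samples correlated between 0.0973 and 0.51 in ZHBTc4 (median 0.331; -0.16 for different numbers), a hint from the data that samples of a number belong together, between -0.198 and 0.393 in ZHTc6 (median 0.143; -0.0505 for different numbers) and between -0.111 and 0.146 at 0 h. One fit over all time points gave 37 at ZHBTc4 24 h with and without the replicate block; with the replicate block the 5-day counts were 12 higher and 31 lower in ZHBTc4 and 12 and 28 in ZHTc6, and 0 members were called at 0 h.

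Leaving out 1 sample at a time gave 8 to 23, 21 to 35, 34 to 38, 35 to 38 and 35 to 38 members at the 5 times in ZHBTc4, and 35 to 39, 37 to 47, 10 to 27, 14 to 27 and 18 to 25 in ZHTc6. Over the 5 days it gave 9 to 11 higher and 25 to 29 lower in ZHBTc4 and 8 to 12 higher and 22 to 29 lower in ZHTc6. From early to late it gave 10 to 15 higher and 3 to 9 lower in ZHBTc4 and 33 to 34 higher and 7 to 10 lower in ZHTc6. By the F test it gave 14 to 23 and 38 to 48, at 0 h 0 to 20, and between lines 14 to 21 higher and 12 to 17 lower. With the ZHTc6 120 h pair numbered as its time point is labelled, the 5-day calls of Smarca1 in ZHTc6 (adjusted p = 0.0502) and of Arid4b (0.0613) and Kdm6b (0.057) in ZHBTc4 and the line difference of Chd9 (0.0646) were lost. At a log2 difference of 0.5, 2 members passed in siTcl1 cells.

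Direction turned in few named values. From early to late in ZHTc6, scaled arrays gave Kat2b -0.0127, Kat6b -0.465, Kdm3a -0.288, Kmt2c -0.0309 and Setdb1 -0.502, and the first oligonucleotide gave Kat2b -0.517 and Hdac4 0.237; it gave Chd9 0.0072 in ZHBTc4. With annotation names alone Kmt2e was -0.207 over 5 days and -0.179 late in ZHBTc4 and -0.552 late in ZHTc6, and Setd2 was -0.0995 over 5 days and -0.0582 late in ZHBTc4. Apart from the construction of an alternative, the cause was not tested.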
